A study of Mus musculus with 16 samples.

Results

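The genes described here encode the nuclear subunits of respiratory complexes III, IV and V, measured as RNA in the dorsal root ganglia (DRG) of mice with nerve injury or sham surgery, treated with the antidepressant desipramine (DMI) or saline. They were chosen by name as the protein-coding genes whose mm10 symbol begins with Uqcr, with Cox followed by 4 to 8, or with Atp5, together with Cyc1. That gave 44 of the 52636 genes in the count files, 9 for complex III, 18 for complex IV and 17 for complex V. A further 8 genes with such symbols are annotated as pseudogenes and were left out. Of the 44, 43 passed the filter on low counts and were tested, and Cox8c was not.

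Each of the 16 libraries held RNA from the L3-6 DRGs of a single male C57Bl6/J mouse, 3 to 4 months old by the study's methods, and each of the 4 groups had 4 mice. Mice had either tibial spared nerve injury (SNI), in which 2 branches of the sciatic nerve are ligated and cut, or sham surgery. From 4 weeks after surgery they were given i.p. injections of DMI (15 mg/kg, 2 daily, over 3 weeks) or of saline, which gives groups named by surgery and injection (SNI-DMI, Sham-DMI, SNI-Saline and, as the control, Sham-Saline), so every mouse had both surgery and injections. The methods section of the study states 4 months in place of 4 weeks. The ganglia are called DRG under cell type in the labels, which put spinal cord under tissue. In CPM, counts relative to the size of the library, 8 DRG neuron markers summed to 8940 to 11320 over the 16 libraries and 6 spinal cord markers to 0.139 to 3.04. DMI libraries are numbered 17 to 24, SNI-Saline libraries 33 to 36 and Sham-Saline libraries 37 to 40, so a number that may follow processing order cannot be told apart from group.

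Complexes III, IV and V are the later steps of oxidative phosphorylation in the inner mitochondrial membrane. Complex III passes electrons from ubiquinol to cytochrome c, complex IV passes them on to oxygen, and complex V, the ATP synthase, uses the proton gradient that results to make ATP. Most subunits are encoded in the nucleus and a few core subunits in the mitochondrial genome, so each complex is assembled from the products of both. Sensory neurons with long axons depend on this supply, and several complex IV subunits exist in isoforms used by particular tissues.

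The short upstream sequences of 3 members are given here on 2 conditions. Each member was called in both contrasts with Sham-Saline described below. Its 120-base window holds a match to a motif of GABPA, NRF1 or the estrogen-related receptors, which are known to regulate respiratory genes. The 3 were selected after the matches were seen. Members called in both contrasts with only SP1 or CCAAT box matches there, such as Atp5e, Cox5a and Cox7a2l, were not considered. Windows that reach far into annotated exons were not printed. Among these are Atp5g2 (80 exon bases), Atp5k (49) and Atp5h (43), which meet both conditions as well. RefSeq windows of GRCm38.p6 were matched for 33 of the 44 genes. The sequences run 5′ to 3′ on the gene's strand up to the base before the annotated start site, and capitals mark the motif matches.

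Uqcr11, chr10:80406822-80406941, minus strand: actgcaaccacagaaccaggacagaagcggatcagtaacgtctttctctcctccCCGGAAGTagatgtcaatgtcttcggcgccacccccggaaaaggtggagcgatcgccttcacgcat
Uqcrh, chr4:116075071-116075190, minus strand: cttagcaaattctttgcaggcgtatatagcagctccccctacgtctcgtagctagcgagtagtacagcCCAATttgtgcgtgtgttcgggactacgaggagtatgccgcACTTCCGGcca
Atp5g3, chr2:73911327-73911446, minus strand: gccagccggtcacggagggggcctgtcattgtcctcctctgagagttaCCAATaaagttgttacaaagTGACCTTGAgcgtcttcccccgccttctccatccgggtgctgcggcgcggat

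The match in Uqcr11 is the ETS motif of GABPA, CCGGAAGT, whose first base lies at position -66 from the start site. In Uqcrh it is the same motif on the other strand, at position -11, with a CCAAT box at -52. In Atp5g3 it is the motif of the estrogen-related receptors, TCAAGGTCA, on the other strand at -52, with a CCAAT box at -72. In the 250 bases upstream, on either strand, CCGGAAGT was found in 3 of the 33 members (9.09%) and in 2.88% of all 32851 windows of the table. The NRF1 motif CGCATGCG was found in 4 members (12.1%, against 1.55% of all windows), namely Atp5g2, Atp5k, Atp5l and Cox6a1, and TCAAGGTCA in 1 (3.03%, against 0.387%). The CCAAT box was found in 18 members (54.5%, against 33.8%), the SP1 motif GGGCGG in 11 (33.3%, against 32.7%), the TATA box TATAAA in 2 (6.06%, against 12.4%) and the YY1 motif AAGATGGCG in 0 (against 0.606%). These are matches of letters and not measured binding sites.

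Of all counts on genes, the 44 genes took 0.532% to 0.597% in the 4 Sham-Saline libraries. The share was 0.615% to 0.681% in the SNI-Saline libraries. It was 0.617% to 0.715% with DMI after sham surgery and 0.677% to 0.699% with DMI after SNI. Every Sham-Saline library thus lay below every library of the other groups. Between 41194238 and 73920332 read pairs were counted on genes per library, and 276449 to 456219 of them lay on the 44 genes. In bulk samples a higher share of cells rich in these RNAs and more of the RNA per cell cannot be told apart. The share of read pairs that the counting placed in no gene was 8.67% to 9.44% for Sham-Saline. It was 7.73% to 9.14% for SNI-Saline, 7.1% to 8.79% for Sham-DMI and 7.42% to 8.38% for SNI-DMI. The 6 libraries highest in that share (all 4 of Sham-Saline, SNI-Saline replicate 3 and Sham-DMI replicate 2) were also the 6 lowest in the members' share of counts, and the part of this in the group differences was not tested beyond the fits given below.

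**Figure D1:**
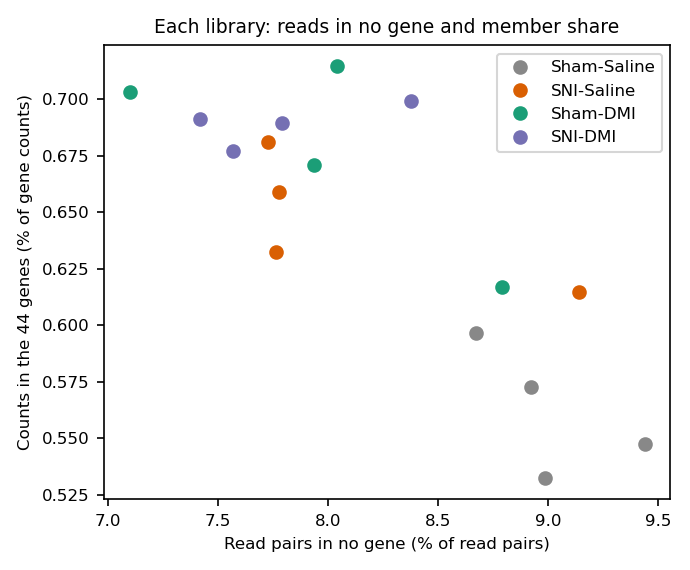
Share of gene counts taken by the 44 nuclear complex III, IV and V genes (percent, vertical axis) against the share of read pairs in no gene (percent, horizontal axis), 1 point per library and 1 color per group. The Sham-Saline points lie lowest, between 0.532% and 0.597%, and at 8.67% to 9.44% on the horizontal axis.

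Levels differed widely between members. Per kilobase of the principal transcript, which allows genes to be compared, the catalytic core of the ATP synthase stood highest among the core subunits, with a Sham-Saline mean of 498 CPM per kb for Atp5b (β subunit) and 295 for Atp5a1 (α subunit). Atp5c1 (γ) had 146 and Atp5d (δ) 153 CPM per kb. The core subunits of complex III had 87.0 CPM per kb for Cyc1 (cytochrome c1), 77.2 for Uqcrfs1 (the Rieske iron-sulfur protein) and 71.1 for Uqcrc2, and Cox5a and Cox5b, nuclear subunits of complex IV that surround its mitochondrially encoded core, had 140 and 143. Uqcrc1, the partner of Uqcrc2 in the core of complex III, was counted at only 0.402 CPM per kb. These means have no error for transcript choice, and a gene with principal transcripts of different lengths has an uncertain level.

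Several complex IV subunits have isoforms in separate genes, and in 5 of these 6 sets a single gene carried nearly all of the signal. Each level below is a Sham-Saline mean in CPM per kb, with the CPM and its SD over the 4 mice in brackets (± values are SDs throughout). Cox4i1, the common form of subunit 4, had 330 CPM per kb (252 ± 12.8 CPM), and Cox4i2, its lung form, 1.61 (1.18 ± 0.169 CPM). Cox6a1 had 378 CPM per kb (216 ± 10.4 CPM) and the muscle form Cox6a2 0.281 (0.191 ± 0.0934 CPM). Cox8a had 298 CPM per kb (164 ± 12.8 CPM) and the muscle form Cox8b 0.153 (0.0553 ± 0.0910 CPM). In these pairs the form known from most tissues was the high one in the ganglion. Cox6b1 had 275 CPM per kb (170 ± 9.54 CPM) and the testis form Cox6b2 5.33 (3.12 ± 0.213 CPM). Cox7b had 140 CPM per kb (140 ± 9.54 CPM) and Cox7b2 0.209 (0.114 ± 0.0790 CPM). In the Cox7a set both Cox7a2, at 180 CPM per kb (119 ± 10.1 CPM), and its relative Cox7a2l, at 91.5 (98.4 ± 5.01 CPM), were high. Cox7a2l has been described as a factor that joins complexes III and IV into supercomplexes, and whether it does so in the strain used here was not tested. The muscle form Cox7a1 had 5.85 CPM per kb (2.30 ± 0.346 CPM). Cox8c was listed at 0 in 14 of the 16 libraries and had 1 count in the other two. A library with 0 counts allows up to 3 counts, a limit that covers counting error only.

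The membrane ring of the ATP synthase is built from copies of the c subunit, which 3 genes (Atp5g1, Atp5g2 and Atp5g3) encode with the same mature protein. The last 90 coding bases of each, from the GENCODE M21 transcripts, are shown because the differences between them help to separate reads that fall there. Capitals mark the 24 positions at which not all 3 genes have the same base.

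Atp5g1: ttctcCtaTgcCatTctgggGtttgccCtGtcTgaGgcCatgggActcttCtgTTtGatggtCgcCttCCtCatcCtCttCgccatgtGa
Atp5g2: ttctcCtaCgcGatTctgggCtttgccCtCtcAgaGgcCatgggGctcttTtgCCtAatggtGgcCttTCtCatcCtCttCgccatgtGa
Atp5g3: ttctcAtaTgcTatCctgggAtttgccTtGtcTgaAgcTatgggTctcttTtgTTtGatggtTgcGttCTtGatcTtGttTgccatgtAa

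Over the longer coding end compared, Atp5g1 and Atp5g2 were identical at 85.1% of bases, Atp5g1 and Atp5g3 at 79.8% and Atp5g2 and Atp5g3 at 78.5%, with no identical run longer than 21 bases. Atp5g3 had 266 CPM per kb in Sham-Saline (193 ± 9.04 CPM) and 270 on the shortest of its principal transcripts. Atp5g2 had 28.1 to 46.5 CPM per kb (20.5 ± 0.833 CPM). Atp5g1 had 19.97 to 158 CPM per kb (94.2 ± 7.53 CPM), since its principal transcripts run from 596 to 4715 bases. By these counts Atp5g3 was thus the highest of the 3 on either choice of transcript, while the order of Atp5g1 and Atp5g2 depends on that choice. The levels of Atp5g1 and Atp5g2 are further uncertain because of their near-identical copies, given below.

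Some counts are uncertain. The coding sequence of 17 members matched another gene at 95% identity or more over at least 50 bases, most often a processed pseudogene. In 6 members the matched genes held over 10% as many counts as the member itself. These were Atp5l (57.0%), Atp5g1 (37.6%, the pseudogene Gm10039), Cox7c (37.5%), Atp5h (35.4%), Uqcrb (25.6%) and Cox5b (17.4%). The coding sequence of Atp5g2 (441 bases) matched the pseudogenes Gm10175 and Gm10231 at 100%, though these held only 1.10% and 0.53% as many counts. Pairs aligned to more than 1 place (5.71% to 6.40% per library) are not in the gene counts. A low count of the copies thus does not make the count of Atp5g2 certain. Members such as Atp5j (with Gabpa), Cox4i1 (with Emc8), Atp5a1 (with Haus1) and Uqcrc2 (with Pdzd9) share exon bases with a gene on the opposite strand. Whether the counter used strand is not given in the sources used here, and without it reads of both genes cannot be told apart.

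A few libraries stood apart for members counted at low levels. Uqcrc1 had 0.466 to 1.498 CPM in 14 libraries, 11.05 in Sham-DMI replicate 2 and 4.58 in SNI-DMI replicate 1. Cox6a2 had 1.34 CPM in SNI-Saline replicate 2, 2.50 in SNI-DMI replicate 2 and at most 0.552 elsewhere. Cox8b had 0.489 and 0.888 CPM in these same libraries and at most 0.394 elsewhere. Of 10 skeletal muscle markers, the 9 without Pvalb, which DRG neurons also express, summed to 92.0 and 340 CPM there, to 58.3 in Sham-Saline replicate 1, to 21.4 in SNI-Saline replicate 4 and to 2.77 to 9.92 in the others. Their part in the values of Cox6a2 and Cox8b was not tested, and neither gene was called in any contrast.

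SNI-Saline versus Sham-Saline addresses the effect of injury. Of the 43 members tested, 25 rose and 0 fell, 4 of 9 in complex III, 10 of 17 in complex IV and 11 of 17 in complex V. Called here means an adjusted p under 0.1 (Benjamini-Hochberg) over all 21371 genes tested, from edgeR's quasi-likelihood test on all 16 libraries. Of all genes, 5.85% were called higher. The log2 fold changes of the 25 lay between 0.16 and 0.36. The median was 0.22 over the members and -0.000604 over all genes, and 40 of the 43 members had a fold change above 0, against 49.9% of all genes.

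Uqcr11 (chromosome 10, 80402997 to 80406830 on the minus strand of GRCm38), a small subunit of complex III, had the smallest p for injury. It had 75.1, 82.5, 69.2 and 81.1 CPM in the Sham-Saline mice and 99.9, 96.7, 90.8 and 89.6 in the SNI-Saline mice. Every SNI-Saline mouse lay above every Sham-Saline mouse, with a log2 fold change of 0.29 (SE 0.0676, edgeR adjusted p = 0.0236). Cox7a2l (chromosome 17, 83501918 to 83517330, minus strand) had 98.0, 103, 91.6 and 101 CPM in Sham-Saline and 117, 116, 110 and 116 in SNI-Saline. These groups did not overlap either, and the log2 fold change was 0.22 (SE 0.0527, adjusted p = 0.0267). All 4 SNI-Saline values lay above all 4 Sham-Saline values in 23 of the 43 members, and in 7.67% of all genes tested.

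Atp5k, subunit e of the ATP synthase, had the highest fold change among those called for injury (0.36, SE 0.0869, edgeR adjusted p = 0.0273). Cox7c of complex IV came next (0.35, SE 0.0913, adjusted p = 0.0353), and its count is uncertain because of its copies. Both are small subunits. With trends on GC content and exon length removed, as described below, Cox7c was at 0.31, Cox5a at 0.28 and Atp5k at 0.24. Among the core subunits of complexes III and V and the Cox5 pair, Atp5c1 (γ, 0.19, adjusted p = 0.0560), Cox5a (0.25, 0.0321) and Cox5b (0.22, 0.0522) rose. The rest did not pass, with log2 fold changes and adjusted p of 0.08 and 0.266 for Atp5a1, 0.12 and 0.184 for Atp5b, 0.12 and 0.169 for Cyc1, 0.13 and 0.126 for Uqcrc2, 0.16 and 0.116 for Uqcrfs1, 0.13 and 0.218 for Atp5d, and -0.14 and 0.942 for Uqcrc1. Of the isoforms and c subunit genes given by level, Cox4i1, Cox6a1, Cox6b1, Cox7a2, Cox7a2l, Cox8a, Atp5g2 and Atp5g3 rose, by 0.19 (Atp5g3) to 0.29 (Atp5g2), and Cox7b (0.12, adjusted p = 0.315), Atp5g1 (0.14, 0.187) and the low isoforms did not pass. Single libraries moved the count. It was 6 without Sham-Saline replicate 3, 10 without SNI-Saline replicate 1 and 12 without SNI-Saline replicate 2, and 6 of the 25 members were called in each of the 16 fits without 1 library.

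SNI-DMI versus SNI-Saline addresses the effect of DMI after injury. Here 2 of the 43 members rose, Atp5g2 and Cox4i1, and 0 fell, where 1.32% of all genes were called higher. The median log2 fold change was 0.14 over the members and -0.00470 over all genes, and 38 of the 43 lay above 0, against 49.0% of all genes.

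Atp5g2 (chromosome 15, 102662864 to 102672352, minus strand), 1 of the c subunit genes shown above, had 24.1, 26.5, 23.4 and 26.2 CPM in SNI-Saline and 29.853, 30, 29.604 and 30.251 in SNI-DMI. The groups did not overlap, and the log2 fold change was 0.26 (SE 0.0689, edgeR adjusted p = 0.0876). The count of Atp5g2 is uncertain because of its copies. Cox4i1 (chromosome 8, 120668222 to 120674207, plus strand), a regulatory subunit of complex IV, had 316, 312, 268 and 299 CPM in SNI-Saline and 345, 352, 363 and 337 in SNI-DMI. Every SNI-DMI mouse lay above every SNI-Saline mouse, and the log2 fold change was 0.23 (SE 0.0621, adjusted p = 0.0924). In 18 of the 43 members all 4 SNI-DMI values lay above all 4 SNI-Saline values, and in 7.33% of all genes tested. The number of members called was 0 without any 1 of SNI-DMI replicates 1, 2 and 3, SNI-Saline replicates 1, 3 and 4, Sham-Saline replicates 2 and 4 and Sham-DMI replicate 3. It was 1 without SNI-DMI replicate 4, 8 without Sham-DMI replicate 1 and 11 without Sham-DMI replicate 2.

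Sham-DMI versus Sham-Saline gives the effect of DMI without injury. In this contrast 35 of the 43 members rose and 0 fell, where 11.6% of all genes were called higher. All 9 complex III members were called higher, with 11 of 17 in complex IV and 15 of 17 in complex V. Of the 9, Uqcrc1 was not called without Sham-DMI replicate 2, as given below. The median log2 fold change was 0.34 over the members and -0.02 over all genes.

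Atp5g2 and Atp5o had the smallest p. Atp5g2 had 21.389, 21.043, 19.834 and 19.759 CPM in Sham-Saline and 33.4, 25.6, 28.9 and 30.8 in Sham-DMI, without overlap, and a log2 fold change of 0.53 (SE 0.0693, edgeR adjusted p = 0.00176). Atp5o (chromosome 16, 91925214 to 91931687, minus strand), the stalk subunit that confers sensitivity to oligomycin, had 139, 147, 131 and 139 CPM in Sham-Saline and 181, 163, 171 and 187 in Sham-DMI. These groups did not overlap either, and the log2 fold change was 0.34 (SE 0.0521, adjusted p = 0.00176). All 4 Sham-DMI values lay above all 4 Sham-Saline values in 27 of the 43 members, and in 8.62% of all genes tested. Sham-DMI replicate 2 was the lowest mouse of its group for Atp5g2, Atp5o, Cox4i1, Cox7a2l and Uqcr11.

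Members of every role rose with DMI after sham surgery, by different amounts. In complex III the log2 fold changes were 0.45 for the hinge protein Uqcrh, 0.43 for Uqcr10, 0.41 for Uqcrq and 0.40 for Uqcr11, all small subunits. Uqcrb, also small, was lower at 0.26 (edgeR adjusted p = 0.0365). The values were 0.17 for Cyc1, 0.18 for Uqcrfs1 and 0.16 for Uqcrc2, the larger core subunits (adjusted p = 0.0256, 0.0449 and 0.0353). In complex V they were 0.51 for Atp5k, 0.44 for Atp5e, the ε subunit of the stalk, and 0.43 for Atp5j2, subunit f. The small subunits Atp5j (0.22) and Atp5l (0.19, not called) had lower values, so size alone did not order the members. The catalytic subunits Atp5a1 (0.13, adjusted p = 0.0433) and Atp5b (0.18, 0.0237) rose as well. In complex IV the 11 called members lay between 0.25 (Cox7b) and 0.39 (Cox6b1). With the trends on GC content and exon length removed, these 11 lay between 0.20 (Cox8a) and 0.49 (Cox5a). In complex III the values were then 0.44 for Uqcrh, 0.29 for Uqcr10, 0.39 for Uqcrq, 0.27 for Uqcr11 and 0.36 for Uqcrb. They were 0.125 for Cyc1, 0.17 for Uqcrfs1 and 0.22 for Uqcrc2. In complex V they were 0.37 for Atp5k, 0.41 for Atp5e, 0.44 for Atp5j2, 0.26 for Atp5j, 0.46 for Atp5l, 0.12 for Atp5a1 and 0.29 for Atp5b.

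Uqcrc1, a core protein of complex III, was also called, with a log2 fold change of 2.44 (adjusted p = 0.0317). Without Sham-DMI replicate 2 the value was 0.67 (SE 0.511, adjusted p = 0.391). The 8 members not called were Atp5s (-0.09), Atp5l (0.19) and the low isoforms Cox4i2, Cox6a2, Cox6b2, Cox7a1, Cox7b2 and Cox8b. This contrast shares the 4 Sham-Saline libraries with the injury contrast, so the values of both are given side by side only.

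**Figure D2:**
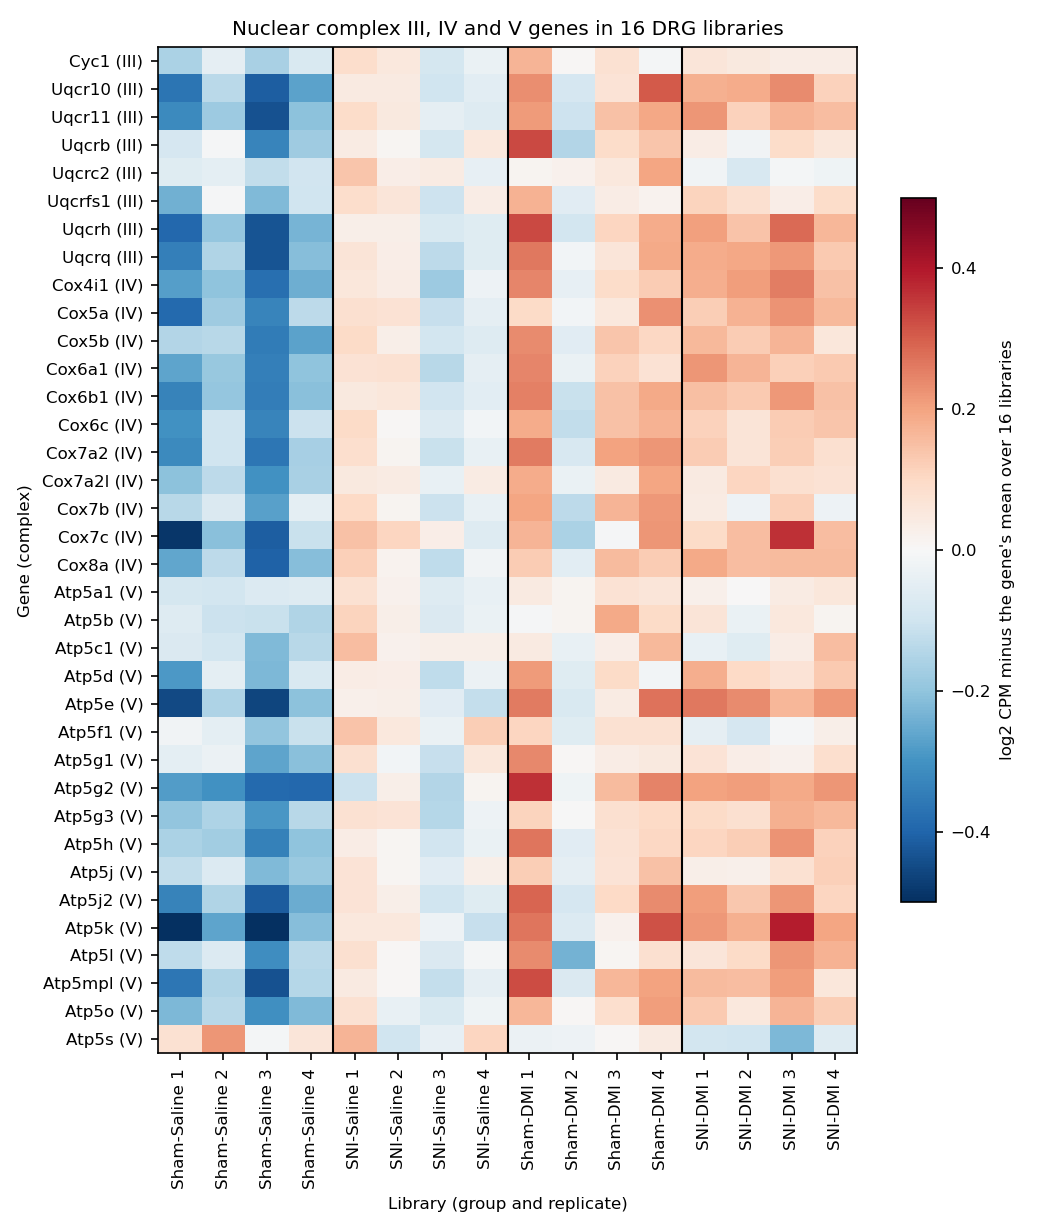
Heat map of the 36 members with a mean of at least 10 CPM in every group, 1 row per gene (complex in brackets) and 1 column per library, colored by log2 CPM minus the mean of the gene over the 16 libraries (scale from -0.5 to 0.5). Sham-Saline columns are blue in nearly every row, down to -0.52, and SNI-DMI columns and Sham-DMI replicates 1, 3 and 4 are mostly red, up to 0.39, while Sham-DMI replicate 2 and SNI-Saline replicates 3 and 4 are mostly pale blue and the row of Atp5s does not follow the others.

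**Figure D3:**
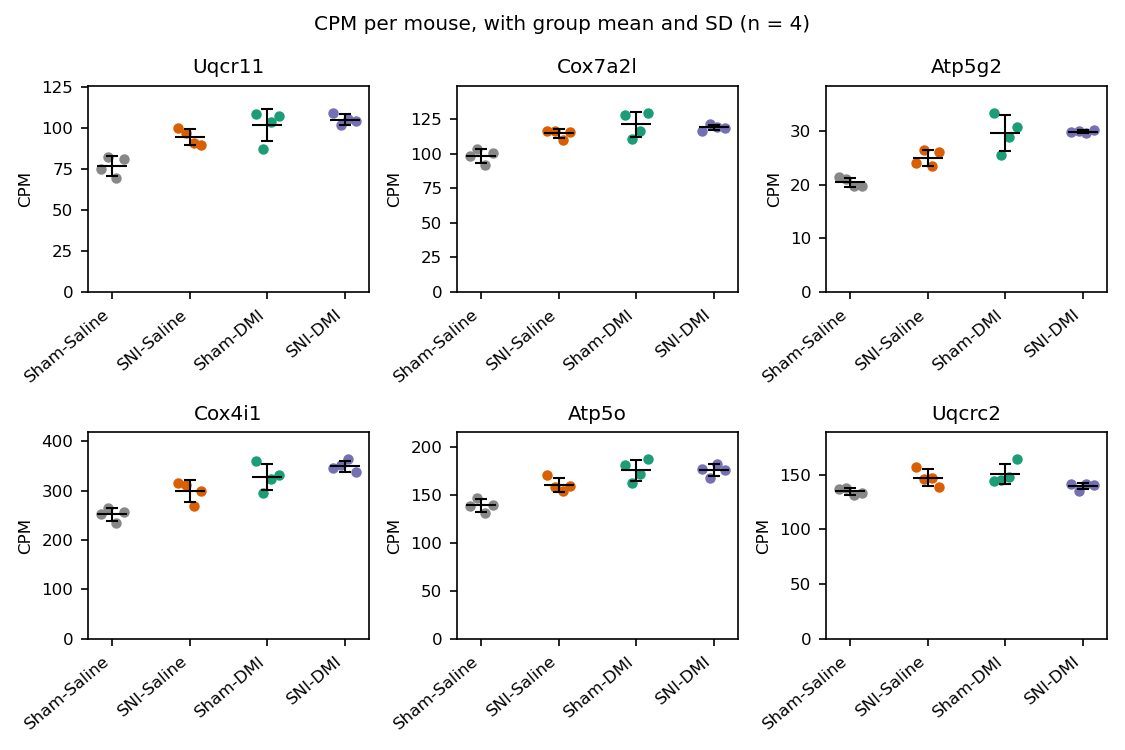
CPM of the 6 members described mouse by mouse, 1 point per mouse, with the group mean and SD (n = 4). For Atp5g2 the Sham-Saline mice lie between 19.76 and 21.39 CPM, below every mouse of the other groups.

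In SNI-DMI versus Sham-DMI, the injury contrast under DMI, 0 of the 43 members were called by edgeR and 1 had an unadjusted p under 0.05, where 0.374% of all genes were called higher. DESeq2 on all 16 libraries also called 0. The median log2 fold change was 0.04, against 0.000710 over all genes. The smallest p was that of Uqcrc2 (chromosome 7, 120635176 to 120659524, plus strand), with 144, 145, 148 and 164 CPM in Sham-DMI and 141, 135, 142 and 141 in SNI-DMI. Every SNI-DMI mouse lay below every Sham-DMI mouse, with a log2 fold change of -0.11 (SE 0.0486, edgeR adjusted p = 0.390). Since Uqcrc2 was picked by its p from the 43, this lack of overlap adds no support. The share of all genes without overlap is not given for this contrast.

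The difference between the DMI effects after SNI and after sham was also tested. The DMI effect was smaller after SNI in 40 of the 43 members by point estimate, against 48.7% of all genes, with a median difference of -0.20 over the members and 0.00626 over all genes. For this difference edgeR called 0 members (smallest adjusted p = 0.619), 20 had an unadjusted p under 0.05, against 7.92% of all genes, and DESeq2 called 0. Of all genes 0.0% were called higher. A difference between the DMI effects was thus not shown for any single member.

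Most members are short genes. The median merged exon length was 1550 bases among the 43 tested, from 360 to 6443, against 3405 among all genes tested, and their median GC content was 50.2%, against 49.1%. Over all genes tested, fold changes were lower in longer genes. With all genes in 10 bins by exon length, the median log2 fold change for DMI after sham was 0.14 in the shortest bin (median 480 bases) and -0.17 in the longest. The same medians were 0.11 and -0.13 for injury, and 0.06 and -0.08 for DMI after SNI. Within the 36 members of at least 10 CPM, Spearman's rho between log2 fold change and exon length was -0.55 for injury, -0.45 for DMI after SNI and -0.57 for DMI after sham. It was -0.70, -0.64 and -0.70 with the length of the principal transcript, and 0.35, 0.47 and 0.38 with GC content. These are descriptions over genes measured in the same libraries. The principal transcripts of Atp5a1 (2471 bases), Atp5b (1916) and Uqcrc2 (1896), whose fold changes were low, are long among the members, whose median is 731. That of Uqcrq is long as well (1521 bases, 405 on the shortest), with log2 fold changes of 0.26 for injury and 0.41 for DMI after sham. Atp5g1 has the longest (4715 bases, 596 on the shortest), so the length used is uncertain for such members.

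**Figure D4:**
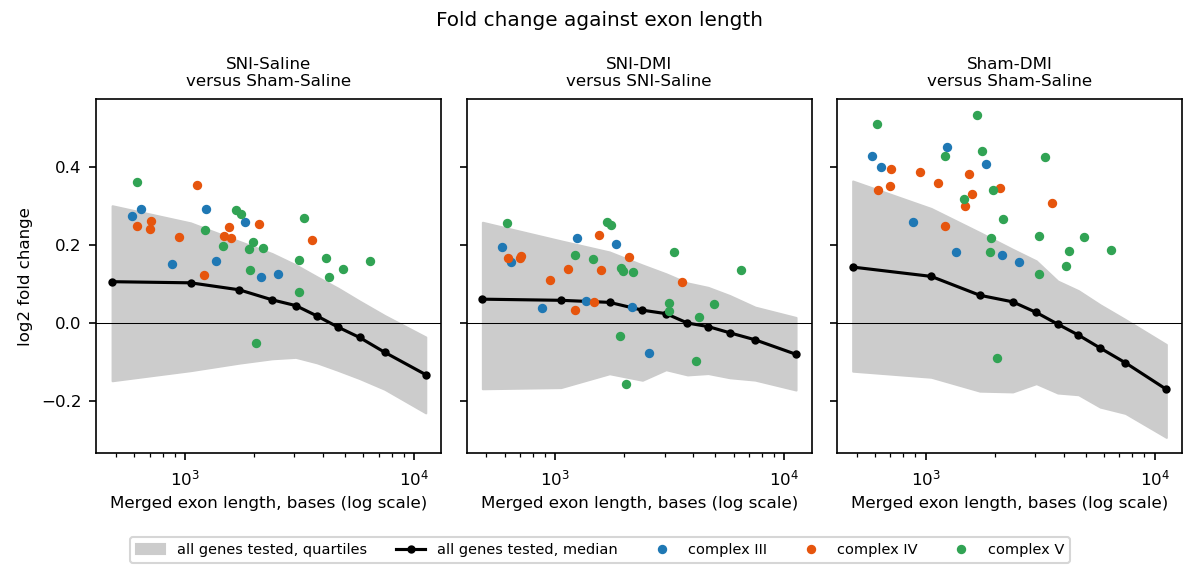
log2 fold change (vertical axis) against merged exon length in bases (log scale) in 3 contrasts. The black line joins the medians of 10 bins of all genes tested, the gray band spans their quartiles, and colored points are the 36 members of at least 10 CPM by complex. In the right panel the line falls from 0.14 to -0.17, and nearly all members lie above it.

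With smooth trends on GC content and on exon length removed from each library, 36 members rose with DMI after sham surgery, all of the 35 and Atp5l, where 15.8% of all genes were called higher. The median over the 43 members tested was 0.31, against 0.04 over all genes. Atp5g2 was at 0.46 and Atp5o at 0.32 (edgeR adjusted p = 0.00105 for each). Over all genes 3385 were called higher and 786 lower, against 2475 and 2535 before the removal, so members are to be read against this shift. For injury 9 members rose, where 2.29% of all genes were called higher. They were Atp5f1, Atp5g3, Atp5j2, Atp5k, Cox5a, Cox7a2l, Cox7c, Uqcr11 and Uqcrh, all among the former 25, with adjusted p from 0.0570 to 0.0958, and the median over the 43 was 0.15. Uqcr11 was at 0.19 and Cox7a2l at 0.15. The count was 0 without SNI-Saline replicate 1, SNI-Saline replicate 2 or Sham-Saline replicate 3, and 3 without replicate 4 of SNI-Saline or replicates 1 or 4 of Sham-Saline, each left out alone. It was 5 without SNI-DMI replicate 1, 14 without Sham-DMI replicate 1 and 19 without Sham-DMI replicate 2.

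For DMI after SNI 0 members were called by edgeR with the trends removed (smallest adjusted p = 0.111, 13 with an unadjusted p under 0.05), where 0.173% of all genes were called higher. Over all genes 37 were then called higher and 5 lower, against 282 and 344. Atp5g2 was at 0.17 (edgeR adjusted p = 0.222) and Cox4i1 at 0.17 (0.198). The median of the members was 0.11, and the fit called 4 members without Sham-DMI replicate 1 and 2 without Sham-DMI replicate 2. For injury under DMI 0 were called, with 4 at an unadjusted p under 0.05 and 0.468% of all genes called higher, and the median turned from 0.04 to -0.05, against -0.04 over all genes. Over all genes 100 were called higher and 104 lower, against 80 and 6. Uqcrc2 was at -0.13 (edgeR adjusted p = 0.161). For the difference between the DMI effects 0 were called, with 22 at an unadjusted p under 0.05 and 0.0% of all genes called higher.

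A pair of further fits was chosen after seeing the data. With trends on the length and GC content of the principal transcript, edgeR called 0 members for injury, 0 for DMI after SNI and 33 for DMI after sham, with medians of 0.11, 0.10 and 0.24. Of all genes 1.2%, 0.201% and 14.1% were called higher in that fit, with medians of -0.00147, 0.02 and 0.05. With the share of read pairs in no gene as a covariate, it called 0, 2 and 21, with medians of 0.13, 0.12 and 0.22. Of all genes 0.599%, 1.32% and 2.61% were then called higher, with medians of 0.00859, -0.000745 and -0.00824. The 21 were all among the 35, and Atp5a1, Atp5b, Atp5c1, Atp5d, Cyc1, Uqcrc2 and Uqcrfs1 were among the 14 no longer called.

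**Figure D5:**
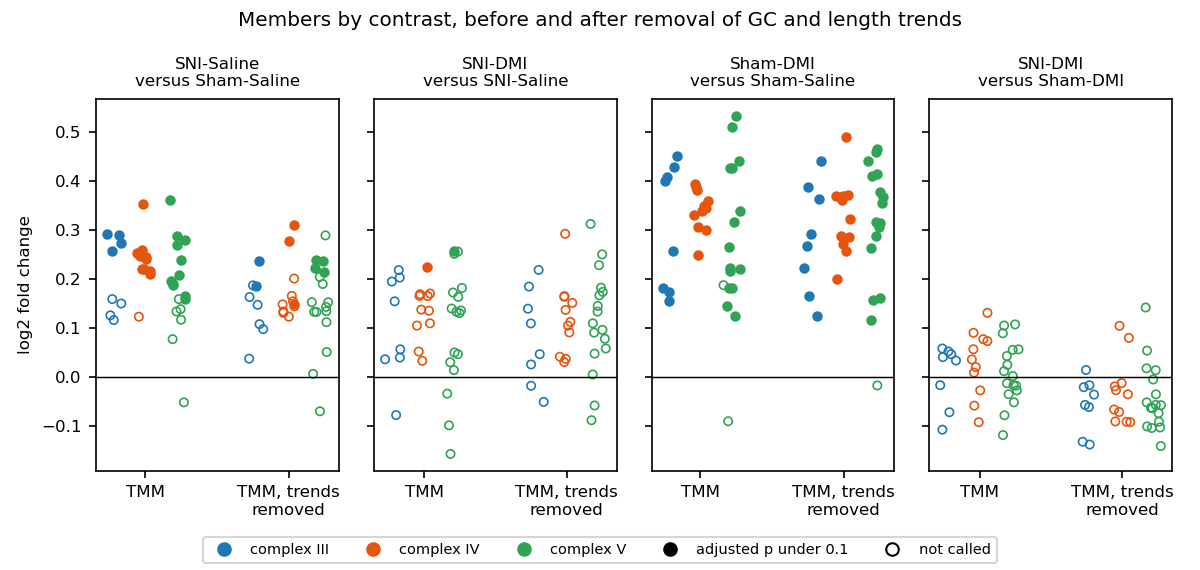
log2 fold changes of the 36 members of at least 10 CPM in 4 contrasts, 1 point per gene colored by complex, with TMM scaling (left in each panel) and with the GC content and length trends removed as well (right). Filled points have an adjusted p under 0.1. For Sham-DMI versus Sham-Saline nearly all points are filled on both sides, for SNI-Saline versus Sham-Saline fewer are filled on the right, and for SNI-DMI versus Sham-DMI none is filled.

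The complexes also hold subunits outside the rule, from the mitochondrial genome and from nuclear genes with other names. Together with Cycs, which encodes the carrier between complexes III and IV, 8 such genes were tested. With DMI after sham, mt-Cytb, the cytochrome b of complex III, had 2055 ± 66.6 CPM in Sham-Saline and 2110 ± 292 in Sham-DMI (log2 fold change 0.04, adjusted p = 0.797). mt-Co1, the catalytic subunit of complex IV, had 2865 ± 106 and 2724 ± 492 CPM (-0.07, 0.648). Neither passed the test. mt-Co3 fell, from 19.4 ± 1.64 to 14.4 ± 2.68 CPM (-0.44, SE 0.141, edgeR adjusted p = 0.0408), and so did mt-Atp8, from 3.64 ± 0.733 to 2.33 ± 0.301 CPM (-0.65, SE 0.217, adjusted p = 0.0488). Both were counted far below mt-Cytb and mt-Co1, as were mt-Co2 (22.65 CPM in Sham-Saline) and mt-Atp6 (19.15). Near-identical copies were searched for the members only, so these low counts and their changes are uncertain. With the trends removed mt-Co3 (-0.26, adjusted p = 0.204) and mt-Atp8 (-0.20, 0.560) were not called and mt-Cytb was called higher (0.24, 0.0351). The nuclear partners Ndufa4, a subunit of complex IV (0.31, adjusted p = 0.00669), and Cycs, cytochrome c (0.20, 0.0851), rose in both fits. For injury and for DMI after SNI 0 of the 8 were called by edgeR in either fit.

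Other genes of the pathway come from lists chosen with earlier results of these data known. Of 45 nuclear complex I genes tested, 29 rose with injury, 5 with DMI after SNI and 39 with DMI after sham, and 0 fell, with medians of 0.20, 0.12 and 0.29. With the trends removed 5, 1 and 41 rose. Of 7 complex II genes, 2 (Sdhb and Sdhc), 0 and 3 (with Sdha) rose and 0 fell. With the trends removed 0, 0 and 5 rose, the last with Sdhaf2 and Sdhaf4 added. Of 30 assembly factors of complexes III, IV and V, 4 rose with injury (Cox14, Higd2a, Uqcc2 and Uqcc3) and 0 fell. With DMI after SNI Higd2a rose (0.25, edgeR adjusted p = 0.0883) and Atpaf1, which assembles the F1 part of the ATP synthase, fell (-0.23, 0.0973). With DMI after sham 10 rose, led by Pet100 (0.43, 0.0147), Uqcc3 (0.42, 0.00586) and Uqcc2 (0.41, 0.00455), and Ttc19, a complex III factor, fell (-0.16, 0.0580). With the trends removed 0 of the 30 were called by edgeR for injury or for DMI after SNI (adjusted p = 0.190 for Higd2a and 0.213 for Atpaf1 after SNI). For DMI after sham 15 then rose and 0 fell, and Ttc19 was at -0.04 (adjusted p = 0.699).

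Ribosomal protein genes were counted in the same contrasts. Those of the mitochondrial ribosome serve the translation of the mitochondrially encoded subunits, and those of the cytosolic ribosome lie outside the pathway. Of 85 cytosolic ones, 62, 3 and 75 rose in the 3 contrasts in the same order, with medians of 0.24, 0.15 and 0.32, and 14, 0 and 74 with the trends removed. Of 76 mitochondrial ones, 23, 7 and 61 rose, with medians of 0.16, 0.11 and 0.25, and 7, 1 and 64 with the trends removed. In these lists 0 genes fell in these 3 contrasts in both fits.

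Of 12 regulators of mitochondrial biogenesis, 0 rose and 2 fell with injury. They were Ppargc1b, a coactivator (-0.39, edgeR adjusted p = 0.0768), and the factor Yy1 (-0.20, 0.0279), and both were also called lower with the trends removed. With DMI after SNI 0 were called. With DMI after sham the nuclear receptor Esrra (0.23, 0.0195) and Nrf1 (0.16, 0.0666) rose. Ppargc1a (-0.31, 0.0546), Ppargc1b (-0.45, 0.0253), Pprc1 (-0.15, 0.0947), Gabpa (-0.19, 0.0524) and Yy1 (-0.16, 0.0348) fell. With the trends removed Esrra, Nrf1 and Tfb1m rose and Ppargc1b alone of the 12 fell. Of all 21371 genes tested, 1321 were called lower with injury and 2535 with DMI after sham. These numbers were 496 and 786 with the trends removed.

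Markers of the cells in the ganglion were counted in the same contrasts. Of 8 DRG neuron markers 1 rose (Tubb3) and 1 fell (Scn9a) with injury, 0 were called with DMI after SNI, and 4 rose and 1 fell with DMI after sham. Their summed level was 8940 to 9660 CPM in Sham-Saline and 9474 to 11320 in Sham-DMI, so these groups overlap. Of 5 macrophage markers 3 rose with injury (Aif1, C1qa and Cd68), with sums of 54.9 to 62.8 CPM in Sham-Saline and 67.8 to 124 in SNI-Saline. DMI-treated mice had macrophage sums of 43.0 to 58.8 CPM if sham-operated and 55.45 to 110 if injured. Of 5 Schwann cell markers 0 were called in the 3 contrasts. For 5 satellite glia markers only sums are given, 1033 to 1148 CPM in Sham-Saline and 1123 to 1181 in SNI-Saline. DMI-treated mice had glial sums of 1007 to 1176 CPM if sham-operated and 1097 to 1310 if injured, so these ranges overlap. Of all genes, 5.85% were called higher with injury, 1.32% with DMI after SNI and 11.6% with DMI after sham. The marker counts are to be read beside these shares. The part of cell composition in the values of the members was not tested.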

How the data were processed

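The authors made stranded mRNA libraries from DRG RNA, sequenced pairs of 50-base reads and aligned them to mm10. The submitters' processing notes name HISAT2, HTSeq and DESeq2, and the versions of HISAT2 and HTSeq are not given in the sources used here. The deposited values are whole-number counts of read pairs per Ensembl gene, not normalized, and the 5 closing lines of unassigned pairs in each file (7.1% to 9.44% of pairs in no gene) were left out. The members and lists were chosen with earlier results of these data known. Counts were fitted in R 4.3.3 with edgeR 4.0.16 (filterByExpr, TMM, glmQLFit, 1 coefficient per group, 16 libraries, 12 residual degrees of freedom), at a Benjamini-Hochberg adjusted p threshold of 0.1. CPM was computed on TMM-scaled library sizes. Trends on GC content and merged exon length (GENCODE M21, which holds 52403 of the 52636 genes) were fitted per library with mgcv 1.9.3 (basis size 8) and entered as offsets. The alternatives included DESeq2 1.42.0. Depth was 41194238 to 73920332 pairs on genes, and the spread is between mice, 1 per library. Members given mouse by mouse are the 2 with the smallest p in each direction among those called in each contrast of 2 groups, or the 1 with the smallest p where none was called. Isoform sets and core subunits are given by group level, partner subunits with Cycs and called list members by value, and other members named were chosen after their values were seen.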

Additional observations from a re-analysis of the deposited data

Results flagged for a closer look

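The CPM of 13 members and the members' share of counts were checked in each group of 4 mice for a library far from the others relative to the range of the group (Dixon's test at the 95% level), which chance gives in about 1 in 20 groups. Of 56 groups checked, 11 had such a library. Uqcrc1 was far above the other mice in Sham-DMI replicate 2 (11.05 CPM, the others 0.717 to 1.498) and in SNI-DMI replicate 1 (4.58 CPM, the others 0.784 to 1.12). Cox6a2 stood apart in SNI-Saline replicate 2 (1.34 CPM, the others 0.122 to 0.272) and in SNI-DMI replicate 2 (2.50 CPM, the others 0.301 to 0.348). Cox8b stood apart in Sham-Saline replicate 1 (0.191 CPM), SNI-Saline replicate 2 (0.489 CPM), Sham-DMI replicate 4 (0.394 CPM) and SNI-DMI replicate 2 (0.888 CPM). Cox7b2 had 0 counts in Sham-DMI replicate 3 and 0.110 to 0.126 CPM in the other mice of that group. Cox7a2l was lowest in SNI-Saline replicate 3 (110.0 CPM, the others 116 to 117), and Uqcrc2 in SNI-DMI replicate 2 (135 CPM, the others 141 to 142).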

How the results depend on the processing

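For injury the 25 calls became 2 (3.64% of all genes higher) by the nominal p and fold cut-offs of the study, 9 once trends on GC content and length were removed (also 9 when these were fitted on other genes), 11 with only the length trend removed, and 0 in both fits chosen after seeing the data, with the share of pairs in no gene as a covariate and with trends on the principal transcript (median 0.11). Without 1 library the calls ran from 6 to 28, and from 0 to 19 with the trends removed. For DMI after SNI 1 member passed the nominal cut-offs (1.93% of all genes higher), Uqcrc1, which is neither of the 2 called, and the calls became 6 with DESeq2, 15 with edgeR on the 8 libraries of the contrast, and 0 with the trends removed, fitted on other genes, on GC content alone or on the principal transcript. Without 1 library they ran from 0 to 11, and from 0 to 4 with the trends removed. For DMI after sham 20 members passed the nominal cut-offs (3.93% of all genes higher), 19 of the 35 and Cox7a1, and the calls became 21 with the covariate (median 0.22). They ran from 32 to 36 without 1 library and from 31 to 36 with the trends removed as well. Of the 35, 31 were called in each fit without 1 library, 20 in each other fit, and 17 in each other fit and by the nominal cut-offs. In SNI-DMI versus Sham-DMI 0 members were called by edgeR, except 1 with the trends removed and without Sham-DMI replicate 4. Its median ran from -0.0135 to 0.0642 without 1 library and from -0.0902 to 0.00223 with the trends removed. For the difference between the DMI effects 0 were called in the alternatives run. In 24 pairs of same-numbered mice, correlations of the deviations ran from -0.0813 to 0.184, with 5 over 0.1. In 72 pairs with different numbers they ran from -0.248 to 0.169, with 7 over 0.1. Both medians lay near 0 (5e-06 and 0.00138). Such weak correlations cannot decide whether the numbers pair the samples. With the replicate block the calls were 24 for injury, 0 for DMI after SNI and 35 for DMI after sham, and with the block and the trends removed 2 for injury and 0 for DMI after SNI. The share of all genes called is not given for DESeq2, the 8-library fits, the single-trend fits or the fits on other genes. Nor is it given for the replicate block and the fits without 1 library. Counts of members in these fits are thus not set against all genes. The causes were not tested.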
